A study of Mus musculus with 8 samples.

Results

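The genes described here are 40 neighbours from the proximal end of mouse chromosome 9, around Birc2, Yap1 and a cluster of matrix metalloproteinase (Mmp) genes. They were chosen from measured values: for each gene, the value in each of 8 tumours minus the median of the other 7. Of the 40 genes, 37 were measured, among 19938 genes with a single symbol, each read by its probe set of highest mean. Angptl5, Jrkl and Ccdc82 were not analysed here. The tumours were primary osteosarcomas of C57Bl6 mice, malignant tumours of bone-forming cells, with 1 array of total RNA for each. In 4 tumours, called shRNA OS, a hairpin transgene (P53.1224) targeted p53, and in the other 4, called Cre:lox OS, both p53 alleles were floxed (P53fl/fl). Of the 4 shRNA OS tumours, replicates 1, 3 and 4 were Rbfl/+ and replicate 2 was Rb+/+, with replicates 1 to 3 from the tibia and replicate 4 from the humerus. Cre:lox OS replicate 1 was an Rb+/+ tumour of the scapula, replicate 2 an Rbfl/+ tumour of the humerus, and replicates 3 and 4 Rbfl/+ tumours of the tibia. The labels name neither the driver of the hairpin and of Cre, nor the age of the mice, nor a normal bone sample, and the p53 gene itself was not analysed here.

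Genes that lie side by side often have unrelated functions. The neighbourhood of Birc2, Birc3, Yap1 and the Mmp genes is known as an amplified segment in mouse and human tumours, mouse osteosarcoma among them. Birc2 and Birc3 encode inhibitor of apoptosis proteins that act as ubiquitin ligases in tumour necrosis factor signalling. Yap1 encodes the transcriptional coactivator that the Hippo pathway holds in check and that binds TEAD factors. The Mmp genes encode secreted enzymes that cut collagen and other matrix proteins, and Mmp13 is the collagenase of hypertrophic cartilage and osteoblasts. DNA was not measured in these tumours.

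All values are log2 expression values, given for each gene in the order of replicates 1 to 4 of each model, and array medians lay between 7.13 and 7.23. Markers of bone-forming cells were high in the 8 tumours: Col1a1 ran from 13.00 to 13.61, Alpl from 12.18 to 13.19 and Sp7 from 9.32 to 10.63, each lowest or, for Alpl, second lowest in Cre:lox OS replicate 4. The array of shRNA OS replicate 2 correlated least with the rest, with a mean correlation of 0.941. Cre:lox OS replicate 4 came next at 0.961, and the remaining tumours lay between 0.964 and 0.968. The count of the 37 genes past 1 in Cre:lox OS replicate 4 and the limma tests were also made without shRNA OS replicate 2. Other counts below were made with all 8 tumours. In bulk tumour RNA, fewer cells of a type and less RNA per cell cannot be told apart.

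One tumour carried the shift. In Cre:lox OS replicate 4, a tibial Rbfl/+ tumour, the 37 genes lay 1.51 (median, log2) above the median of the other 7 tumours, and in those 7 the same median ran from -0.20 to 0.11. There 21 of the 37 genes stood more than 1 above that median, where 3.61% of all 19938 genes did, and 16 stood more than 2 above it, where 0.732% of all genes did. Cre:lox OS replicate 4 held the highest of the 8 values in 27 of the 37 genes, against 13.2% of all genes. Pdgfd and Mmp12 stood more than 1 below it, as 1.21% of all genes did. In shRNA OS replicates 1 to 4, respectively 1, 1, 2 and 0 of the 37 genes stood more than 1 above the rest (1.83%, 3.2%, 1.73% and 1.58% of all genes) and 3, 2, 0 and 3 more than 1 below (0.677%, 3.3%, 0.622% and 1.61%). In replicates 1 to 3 of Cre:lox OS, 1, 0 and 1 stood above (1.07%, 1.12% and 1.96%) and 1, 1 and 2 below (0.502%, 0.797% and 1.52%). As these values chose the genes, they are a description and carry no test. The count remained at 21 without shRNA OS replicate 2.

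**Figure D1:**
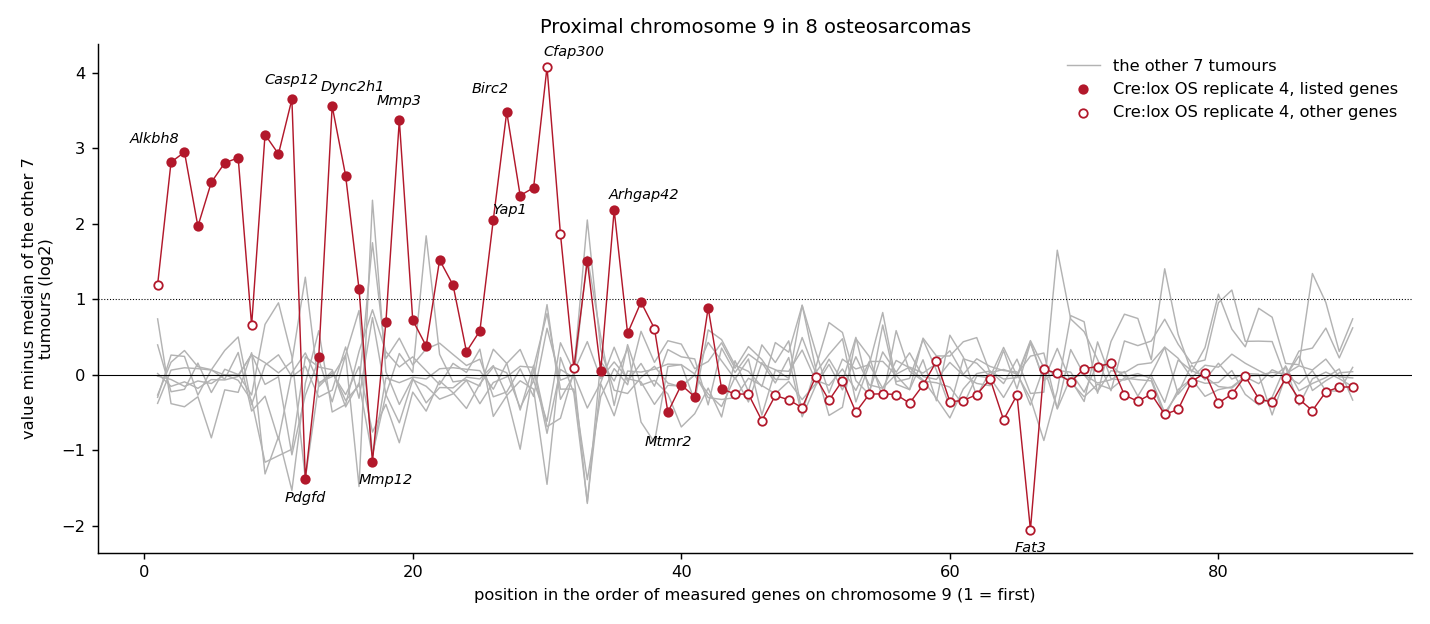
Value minus the median of the other 7 tumours (log2) for the first 90 measured genes of chromosome 9, in chromosome order. Red points are Cre:lox OS replicate 4, filled for the listed genes and open for others, and grey lines are the other 7 tumours. The red points lie above 1 for most genes up to Arhgap42 and below 1 from Cntn5 on, with Pdgfd and Mmp12 below -1 inside the stretch and Fat3 at -2.05 beyond it.

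The stretch began at the start of the measured chromosome. Alkbh8 was the second measured gene of chromosome 9 and stood at 2.82, and the single measured gene before it, known only by a clone name, stood at 1.19. The last gene past 1 was Arhgap42, the 35th measured gene, at 2.18. Between and including these, 34 genes were measured, of which 23 stood above 1 and 17 above 2 in Cre:lox OS replicate 4. After Arhgap42, Cntn5 stood at 0.55, Maml2 at 0.96 and Phxr4 at 0.61, and the next gene, Mtmr2, at -0.50. Of the 30 measured genes that followed Maml2, none stood above 1 and 26 stood below 0, with a median of -0.26. Fat3, at -2.05, was the only one of them below -1, and it was picked for mention by that value. Values on either side of the threshold were 1.13 for Mmp13 and 1.19 for Mmp27 just above it and 0.96 for Maml2 and 0.89 for Sesn3 just below it.

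Among runs of 20 neighbouring measured genes, none elsewhere in the genome was as high in any tumour. Shorter stretches were not scanned, and the same values chose the genes, so this rank is a description. Medians were taken over every run of 20 neighbouring measured genes, and the run that ends with Mmp1a reached 2.59 in Cre:lox OS replicate 4. Among runs that did not touch the stretch, the highest was 0.95 in the same tumour, between Fas and Tnks2 on chromosome 19, and 1.37 over all 8 tumours. Runs that touched the stretch reached at most 0.17 in the other 7 tumours. Of the 50 genes with the largest difference in Cre:lox OS replicate 4, 11 came from this stretch, 10 of them among the 37. Over the 1122 measured genes of chromosome 9 beyond Endod1, the median in this tumour was -0.23, against -0.09 over all genes.

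Birc2, Birc3 and Yap1, the regulators of cell death and growth in the stretch, were highest in Cre:lox OS replicate 4 by a wide margin. Birc2 had levels of 7.51, 7.51, 7.78 and 7.91 in shRNA OS and 7.91, 7.76, 7.56 and 11.24 in Cre:lox OS. The other 7 values spanned less than 1, and replicate 4 was 11.2-fold above their median (difference 3.48, SD of the other 7 0.18). The second probe set of Birc2 stood 2.32 above the median of the other 7. Birc3 had levels of 8.68, 7.77, 8.32 and 8.29 in shRNA OS and 9.01, 8.79, 8.75 and 11.05 in Cre:lox OS. Here shRNA OS replicate 2 was the lowest, and replicate 4 of Cre:lox OS was 5.18-fold above the median of the other 7. Yap1 had levels of 9.65, 9.84, 9.76 and 9.88 in shRNA OS and 9.76, 9.86, 9.55 and 12.24 in Cre:lox OS. The SD of the other 7 was 0.12, the smallest among the 37 genes, and the difference was 2.48 (5.57-fold).

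**Figure D2:**
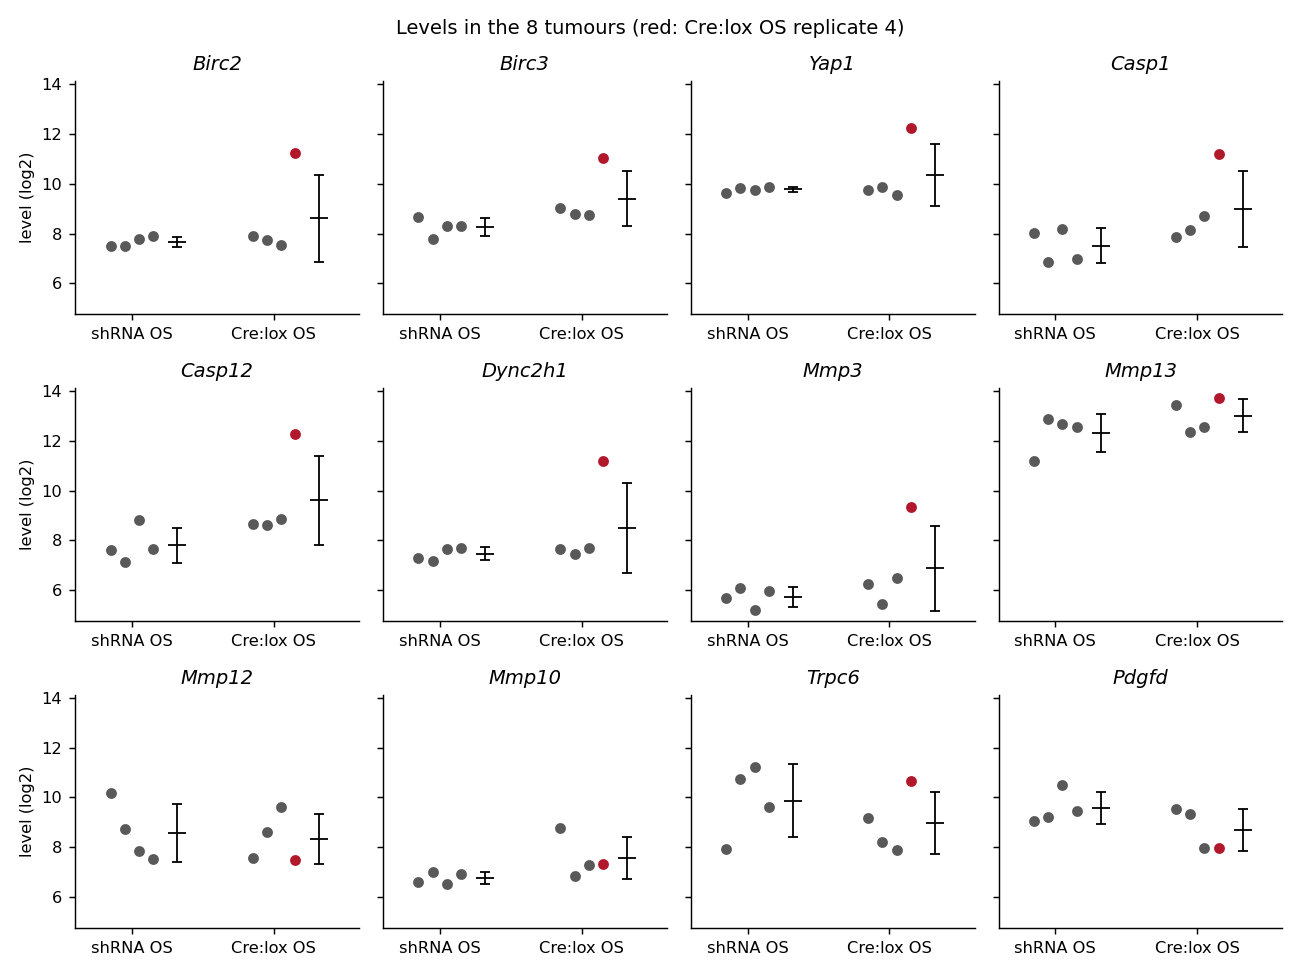
Levels (log2) of 12 of the genes in the 8 tumours, by model. Each point is 1 tumour, in replicate order from left to right, red for Cre:lox OS replicate 4, and bars give the mean and SD of the 4 tumours. The red point stands apart for Birc2, Birc3, Yap1, Casp1, Casp12, Dync2h1 and Mmp3, and lies within the range of the others or at its lower end for Mmp10, Mmp12, Trpc6 and Pdgfd.

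The 3 inflammatory caspase genes were all far higher in Cre:lox OS replicate 4 than in the other 7 tumours. Casp1 encodes the protease that matures interleukins in the inflammasome, Casp4 the sensor of bacterial lipopolysaccharide, and Casp12 a related caspase linked to stress of the endoplasmic reticulum. Casp12 had levels of 7.59, 7.12, 8.80 and 7.67 in shRNA OS and 8.65, 8.63, 8.87 and 12.27 in Cre:lox OS. Casp1 had levels of 8.03, 6.84, 8.19 and 6.997 in shRNA OS and 7.87, 8.15, 8.70 and 11.21 in Cre:lox OS. Casp4 had levels of 7.51, 6.71, 7.53 and 6.46 in shRNA OS and 6.67, 7.77, 8.46 and 10.43 in Cre:lox OS. Their differences in Cre:lox OS replicate 4 were 3.65, 3.18 and 2.92, or 12.5-fold, 9.06-fold and 7.59-fold. The 3 genes also varied more among the other 7 tumours than Birc2 or Yap1 did, with SDs between 0.67 and 0.72. Casp12 was lowest in shRNA OS replicate 2, as was Casp1, and Casp4 was lowest in shRNA OS replicate 4.

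Caspase genes of this group are also active in macrophages, and macrophage markers moved with the tumour. All 13 measured markers of 14 stood above 0 in Cre:lox OS replicate 4 and 10 stood above 1 (3.61% of all genes), with a median of 1.42. The mean log2 level of the 13 ran from 8.90 to 10.57 in shRNA OS and from 9.60 to 10.91 in Cre:lox OS. It was 10.88 in Cre:lox OS replicate 4, 10.91 in Cre:lox OS replicate 3 and 10.57 in shRNA OS replicate 1. In Cre:lox OS replicate 3 and shRNA OS replicate 1, Casp1 stood at 8.70 and 8.03, against 11.21 in Cre:lox OS replicate 4. Casp4 stood at 8.46 and 7.51 in the same order, against 10.43 in Cre:lox OS replicate 4. The part of macrophages in the caspase values was not tested.

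The Mmp cluster was split. Of its 10 measured genes 4 stood above 1 in Cre:lox OS replicate 4, namely Mmp3, Mmp8, Mmp27 and Mmp13, 5 lay between 0 and 1, and Mmp12 lay below -1. Mmp3, a stromelysin that degrades proteoglycans and activates other metalloproteinases, stood farthest above the other tumours. Mmp3 had levels of 5.70, 6.09, 5.19 and 5.98 in shRNA OS and 6.27, 5.45, 6.47 and 9.36 in Cre:lox OS. The 7 other tumours lay below the array medians and Cre:lox OS replicate 4 above them, a difference of 3.37. Mmp13 had levels of 11.19, 12.87, 12.67 and 12.56 in shRNA OS and 13.41, 12.36, 12.53 and 13.70 in Cre:lox OS. Its difference of 1.13 exceeded the next tumour, Cre:lox OS replicate 1, by only 0.28. It fell to 0.99 after quantile normalization.

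Mmp12, the elastase of macrophages, went the other way. Mmp12 had levels of 10.17, 8.72, 7.86 and 7.54 in shRNA OS and 7.56, 8.62, 9.61 and 7.47 in Cre:lox OS. Macrophage marker levels were high in shRNA OS replicate 1 and Cre:lox OS replicates 3 and 4. Their part in the Mmp12 values was not tested. Mmp12 was highest in shRNA OS replicate 1 and Cre:lox OS replicate 3 and lowest in Cre:lox OS replicate 4. Its difference of -1.15 there was -0.77 when either of the first pair of shRNA OS tumours, or replicate 3 of Cre:lox OS, was left out, and -0.82 with replicate 2 of Cre:lox OS left out. Mmp10 had levels of 6.62, 6.99, 6.51 and 6.93 in shRNA OS and 8.77, 6.84, 7.28 and 7.31 in Cre:lox OS. The highest value of Mmp10, a second stromelysin, was that of Cre:lox OS replicate 1, and Cre:lox OS replicate 4 stood at 0.38.

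The remaining metalloproteinase genes were dim in all 8 tumours, below the array medians. Mmp8 had levels of 5.35, 5.39, 5.44 and 5.52 in shRNA OS and 5.71, 5.19, 5.85 and 6.96 in Cre:lox OS, and Mmp27 had levels of 5.70, 5.93, 5.63 and 5.87 in shRNA OS and 5.78, 5.62, 6.05 and 6.97 in Cre:lox OS. Mmp8, the collagenase of neutrophils, stood at 1.52 and Mmp27 at 1.19, and for both Cre:lox OS replicate 4 was above all other tumours. Neutrophil markers had a median of -0.04 in that tumour, with 1 of 10 above 1 (Cxcr2, 1.57), where 3.61% of all genes were. Mmp1a was 4.90, 5.15, 4.71 and 4.91 in shRNA OS and 4.94, 4.88, 5.04 and 5.64 in Cre:lox OS, and Mmp1b was 4.17, 4.43, 3.78 and 4.13 in shRNA OS and 3.91, 3.91, 4.34 and 4.82 in Cre:lox OS, replicates in order. These interstitial collagenase genes stood at 0.72 and 0.69. As near copies of each other, Mmp1a and Mmp1b cannot be separated with certainty. Mmp7, which encodes matrilysin, was 6.33, 6.67, 6.27 and 6.39 in shRNA OS and 6.24, 6.005, 6.54 and 6.91 in Cre:lox OS, and Mmp20, the protease of tooth enamel, was 6.10, 6.13, 5.69 and 6.17 in shRNA OS and 6.06, 6.06, 6.22 and 6.41 in Cre:lox OS. Their differences were 0.58 and 0.31.

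Promoters of the cluster are shown because neighbouring Mmp genes that share a promoter element differed in how far they moved. The element is the binding motif of AP-1, the factor made of Fos and Jun proteins, searched as TGANTCA on both strands. Promoter sequences came from RefSeq (GRCm38.p6, another build than the mm9 named for the arrays), from 250 bases before to 50 after each annotated start, and 36 of the 37 genes had one. The motif was present in promoters of 8 of the 10 Mmp genes and of 0 of the other 26 genes, where 2425 of all 27025 genes hold it. Counted by promoter, 8 of 12 Mmp promoters held it (66.7%), against 7.81% of all 32851 promoters. The Mmp genes arose by duplication, so these promoters are not independent of each other. Mmp3 (chr9:7445572-7445871, plus strand), Mmp13 (chr9:7272264-7272563, plus strand) and Mmp10 (chr9:7502092-7502391, plus strand) carry it 46, 35 and 63 bases before the start. Mmp8 (chr9:7558179-7558478, plus strand) does not hold these letters in the window. Birc2 (chr9:7837008-7837307, minus strand, the first of its 2 listed promoters) is added for comparison and holds the cyclic AMP response element TGACGTCA 35 bases before the start, which 1.79% of all promoters hold. Capitals mark the AP-1 motif in the first 3 sequences and the cyclic AMP response element in the last.
Mmp3: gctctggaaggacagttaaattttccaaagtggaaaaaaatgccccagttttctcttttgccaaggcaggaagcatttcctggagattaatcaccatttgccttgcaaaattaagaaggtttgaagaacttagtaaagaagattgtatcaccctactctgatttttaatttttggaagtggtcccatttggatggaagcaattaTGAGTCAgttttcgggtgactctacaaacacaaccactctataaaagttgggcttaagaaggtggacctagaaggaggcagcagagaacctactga
Mmp13: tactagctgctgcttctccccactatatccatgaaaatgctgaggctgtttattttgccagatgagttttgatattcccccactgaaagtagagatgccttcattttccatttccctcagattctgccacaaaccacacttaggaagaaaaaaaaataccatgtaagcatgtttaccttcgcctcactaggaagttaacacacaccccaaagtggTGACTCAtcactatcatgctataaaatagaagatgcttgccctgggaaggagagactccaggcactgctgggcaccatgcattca
Mmp10: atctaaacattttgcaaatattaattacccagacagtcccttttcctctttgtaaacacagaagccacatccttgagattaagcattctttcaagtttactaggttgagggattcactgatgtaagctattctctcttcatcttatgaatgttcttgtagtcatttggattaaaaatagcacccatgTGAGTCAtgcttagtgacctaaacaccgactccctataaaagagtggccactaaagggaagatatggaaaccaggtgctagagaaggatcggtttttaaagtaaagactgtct
Mmp8: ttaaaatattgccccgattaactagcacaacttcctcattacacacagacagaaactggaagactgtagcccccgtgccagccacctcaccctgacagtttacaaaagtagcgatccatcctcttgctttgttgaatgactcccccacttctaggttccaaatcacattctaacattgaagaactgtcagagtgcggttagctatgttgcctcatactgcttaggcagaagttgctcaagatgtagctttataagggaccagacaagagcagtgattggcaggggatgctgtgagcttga
Birc2: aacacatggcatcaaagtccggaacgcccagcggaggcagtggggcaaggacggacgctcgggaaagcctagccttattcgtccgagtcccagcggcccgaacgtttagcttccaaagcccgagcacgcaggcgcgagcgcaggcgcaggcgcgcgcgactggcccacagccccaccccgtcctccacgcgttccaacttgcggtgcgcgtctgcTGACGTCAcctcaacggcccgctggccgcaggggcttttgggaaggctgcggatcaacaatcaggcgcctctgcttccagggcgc

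Mmp genes with and without the motif overlapped in their values. In Cre:lox OS replicate 4, the genes that hold it ranged from Mmp3 (3.37) and Mmp13 (1.13) through Mmp1a (0.72), Mmp1b (0.69), Mmp7 (0.58), Mmp10 (0.38) and Mmp20 (0.31) to Mmp12 (-1.15). Those that lack these letters were Mmp8 (1.52) and Mmp27 (1.19). Of the 10 AP-1 genes, 1 stood above 1 in that tumour (3.61% of all genes did), Fosl1 at 1.49. The median was -0.06, with Atf3 at -0.99. The TEAD motif GGAATG was found in the promoter of Yap1, 141 bases before the start, and in promoters of Mtmr2, where 14.7% of all promoters hold it.

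The other genes past 1 have varied roles in the cell. At the proximal end lie Alkbh8, which encodes a methyltransferase of transfer RNA, Cwf19l2, related to a yeast splicing factor, and Msantd4, which encodes a protein with a Myb-like domain. Alkbh8 had levels of 8.05, 7.82, 8.21 and 8.14 in shRNA OS and 8.31, 8.40, 7.98 and 10.96 in Cre:lox OS. Cwf19l2 had levels of 7.59, 7.26, 7.69 and 7.53 in shRNA OS and 7.91, 7.84, 7.49 and 10.54 in Cre:lox OS. Msantd4 had levels of 8.43, 8.22, 8.45 and 8.38 in shRNA OS and 8.75, 8.95, 8.46 and 11.33 in Cre:lox OS. Each had 7 values within a narrow band and 1 far above it, with differences of 2.82, 2.95 and 2.87. Aasdhppt encodes the enzyme that attaches phosphopantetheine to carrier proteins. Aasdhppt had levels of 9.36, 8.59, 9.43 and 9.31 in shRNA OS and 9.43, 9.43, 9.19 and 11.91 in Cre:lox OS. Apart from Cre:lox OS replicate 4 (2.55), shRNA OS replicate 2 stood apart as the lowest. Kbtbd3, a kelch-repeat gene, and Gucy1a2, which encodes a subunit of the nitric oxide receptor guanylate cyclase, were dim elsewhere. Kbtbd3 had levels of 4.94, 4.81, 5.004 and 5.01 in shRNA OS and 4.95, 5.33, 5.08 and 7.81 in Cre:lox OS. Gucy1a2 had levels of 6.52, 6.41, 6.70 and 6.61 in shRNA OS and 6.72, 6.43, 6.77 and 8.58 in Cre:lox OS. Both crossed the array median in Cre:lox OS replicate 4, with differences of 2.81 and 1.97.

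Further along the stretch, Dync2h1 encodes the heavy chain of the motor that carries cargo back along cilia, and Dcun1d5 a protein that helps attach Nedd8 to cullins. Dync2h1 had levels of 7.31, 7.17, 7.67 and 7.71 in shRNA OS and 7.64, 7.46, 7.69 and 11.20 in Cre:lox OS. Dcun1d5 had levels of 9.15, 8.76, 8.89 and 8.72 in shRNA OS and 9.15, 9.26, 8.81 and 11.52 in Cre:lox OS. Dync2h1 was 11.8-fold and Dcun1d5 6.22-fold above the median of the other 7, and for both the other 7 values lay close together. Tmem123 encodes a cell surface protein, and Arhgap42 is the last gene of the stretch. Tmem123 had levels of 11.43, 10.85, 11.41 and 11.21 in shRNA OS and 11.64, 11.30, 11.11 and 13.36 in Cre:lox OS. Arhgap42 had levels of 10.26, 10.40, 10.60 and 10.89 in shRNA OS and 11.09, 10.80, 10.72 and 12.90 in Cre:lox OS. Both were bright in all tumours and stood 4.15-fold and 4.54-fold higher in Cre:lox OS replicate 4. The second probe set of Arhgap42 gave a difference of 2.46.

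Of 4 measured genes that lie between the listed ones, 2 stood above 1. Cfap300, a gene of motile cilia that lies next to Yap1, was 7.24, 7.91, 8.07 and 8.001 in shRNA OS and 9.001, 8.88, 8.69 and 12.15 in Cre:lox OS. Its difference of 4.07 was the largest in the stretch and ranked 6 among all 19938 genes. Apart from that tumour, Cfap300 was also higher in the other Cre:lox OS tumours than in any shRNA OS tumour. Over all 8 tumours, 3.44% of all genes were likewise lower in every shRNA OS tumour than in any Cre:lox OS tumour. Cep126, a gene of the centrosome, was 7.42, 7.26, 7.62 and 6.69 in shRNA OS and 6.94, 7.08, 7.19 and 9.06 in Cre:lox OS, with a difference of 1.86. Gria4, which encodes a glutamate receptor of neurons, was dim and stood at 0.65. The remaining gene, known only by a clone name, stood at 0.09.

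Genes above and below the array median differed in how many stood past 1. Of the 20 genes of the stretch whose median in the other 7 lay above the array median, 18 stood above 1 in Cre:lox OS replicate 4, with Pdgfd and Mmp12 as the exceptions. Of the 14 genes below the array median 5 did so, namely Gucy1a2, Kbtbd3, Mmp3, Mmp8 and Mmp27, and none of the 14 fell below 0. Over the whole series 3.61% of genes stood above 1 there, and 4.72% of genes above the median of mean level. Differences also rose with level over all 19938 genes (Spearman correlation 0.26, against 0.17 over the 30 listed genes of the stretch).

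**Figure D3:**
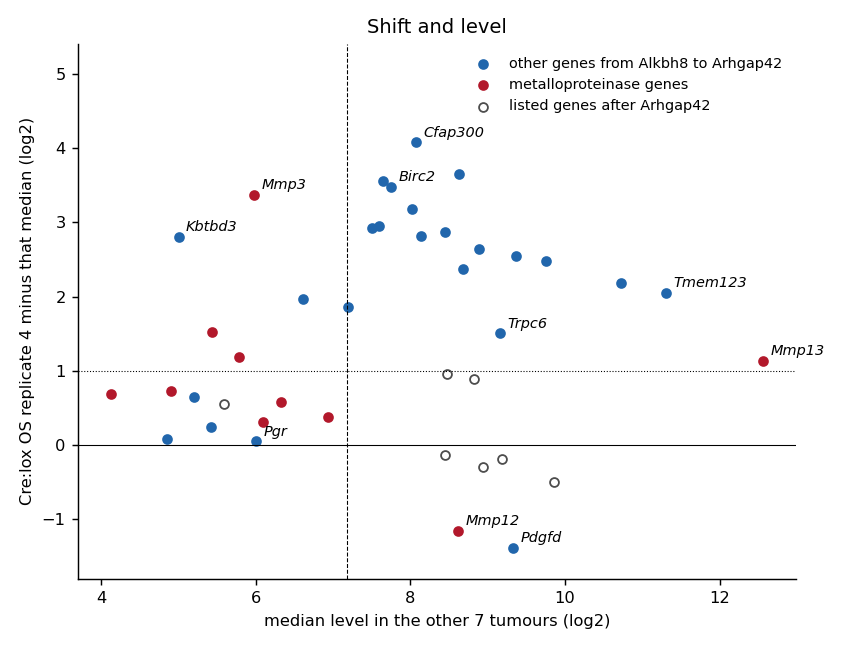
Difference of Cre:lox OS replicate 4 from the median of the other 7 tumours (log2) against that median (log2), for the 34 measured genes from Alkbh8 to Arhgap42 and the 7 listed genes after it. Red marks metalloproteinase genes and open circles genes after Arhgap42, the dashed line is the median of the array medians and the dotted line a difference of 1. Of the genes to the right of the dashed line all but Pdgfd and Mmp12 of the stretch lie above 1.

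Of the 34 genes of the stretch 11 did not stand above 1, and besides Mmp12 Pdgfd alone lay below 0. Pdgfd, which encodes a ligand of the platelet-derived growth factor receptor beta, was 9.06, 9.22, 10.51 and 9.46 in shRNA OS and 9.51, 9.33, 7.96 and 7.95 in Cre:lox OS. It was as low in Cre:lox OS replicate 3 as in replicate 4 and highest in shRNA OS replicate 3, and its difference in replicate 4 was -1.38. Its receptor genes were 0.66 (Pdgfrb) and 0.59 (Pdgfra) against the median of the other 7 there. Trpc6, a gene of a calcium-permeable channel, was 7.92, 10.73, 11.21 and 9.60 in shRNA OS and 9.16, 8.21, 7.90 and 10.67 in Cre:lox OS. Its other 7 values spread with an SD of 1.34, the widest of the 37 genes, and although Trpc6 stood past 1 in Cre:lox OS replicate 4 (1.51), shRNA OS replicates 2 and 3 were higher. Against the other 3 Cre:lox OS tumours alone its difference was 2.46. Ddi1, which encodes a protease-like protein, was 5.62, 6.002, 5.36 and 5.52 in shRNA OS and 5.42, 5.23, 5.39 and 5.66 in Cre:lox OS, and Pgr, the progesterone receptor gene, was 5.94, 6.52, 6.34 and 6.01 in shRNA OS and 5.96, 5.77, 6.19 and 6.06 in Cre:lox OS. Both lay below the array medians in every tumour and stood at 0.24 and 0.05.

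Of the 7 listed genes beyond Arhgap42, 0 stood above 1 in Cre:lox OS replicate 4 and 4 stood below 0. The other 3, Maml2 (0.96), Sesn3 (0.89) and Cntn5 (0.55), stood above 0.5, as 10.2% of all genes did. All 3 were highest of the 8 tumours there. Maml2, which encodes a coactivator of Notch, was 8.52, 8.38, 8.48 and 8.42 in shRNA OS and 8.63, 9.05, 7.89 and 9.44 in Cre:lox OS. Cre:lox OS replicate 4 was the highest but only by 0.39, and the second probe set of Maml2 gave a difference of 0.44 against 0.96. Cntn5, a neuronal adhesion gene, was dim in all 8 tumours. Sesn3, a gene of the stress-induced sestrins, was 9.26, 8.83, 8.70 and 8.75 in shRNA OS and 8.61, 9.003, 9.42 and 9.71 in Cre:lox OS, with Cre:lox OS replicate 4 the highest and Cre:lox OS replicate 3 the next. Mtmr2, a lipid phosphatase gene, the centrosome gene Cep57, Fam76b and Endod1 stood at -0.50, -0.13, -0.29 and -0.19. The next named genes, Kdm4d (-0.25), Cwc15 (-0.26), Amotl1 (-0.61) and Piwil4 (-0.27), also lay below 0.

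**Figure D4:**
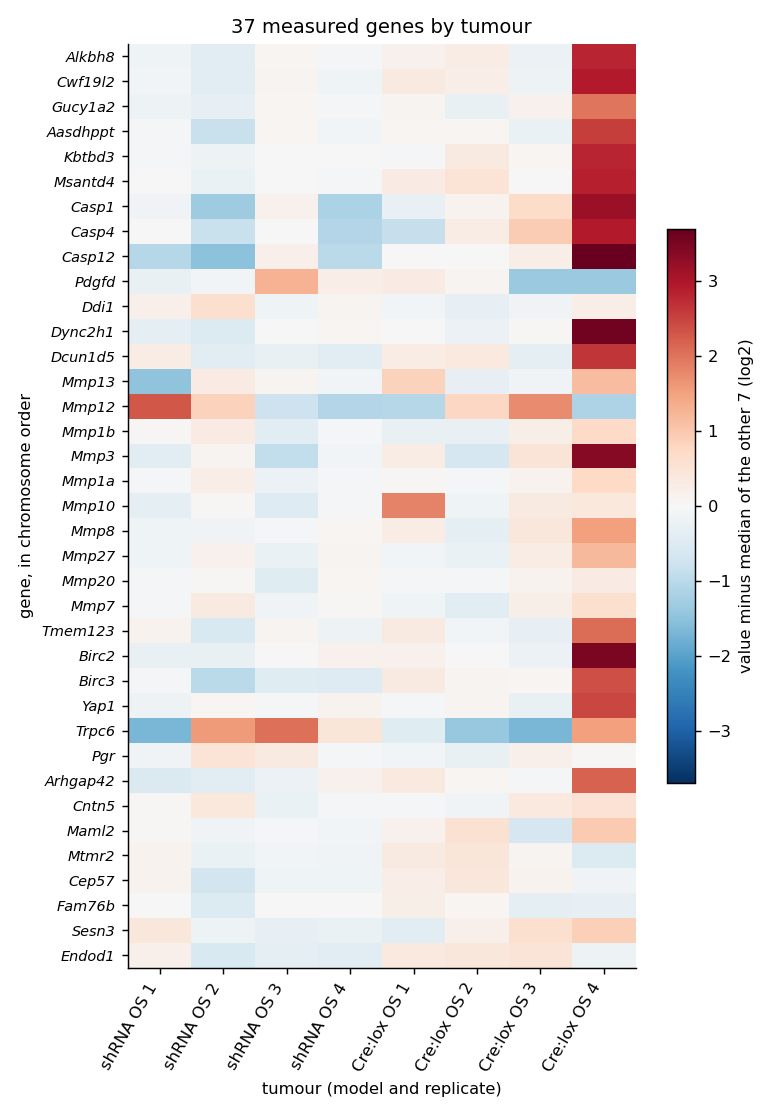
Value minus the median of the other 7 tumours (log2, colour) for the 37 measured genes in chromosome order (rows) in the 8 tumours (columns). Red in Cre:lox OS replicate 4 marks most genes from Alkbh8 to Arhgap42, with Pdgfd and Mmp12 blue and others, such as Ddi1 and Pgr, near white. The other columns show single genes such as Mmp12, Trpc6 and the caspase genes.

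In the other 7 tumours fewer genes of the neighbourhood stood past 1. The caspase genes were low together in shRNA OS replicates 2 and 4, though not all past -1. Casp1, Casp4 and Casp12 stood at -1.31, -0.82 and -1.53 in replicate 2 and at -1.16, -1.07 and -0.99 in replicate 4. Singly, Casp12 stood at -1.06 in shRNA OS replicate 1 and Casp4 at -0.86 in Cre:lox OS replicate 1. Over all 37 genes the largest differences were 2.31 for Mmp12 in shRNA OS replicate 1, 2.05 for Trpc6 in shRNA OS replicate 3, 1.84 for Mmp10 in Cre:lox OS replicate 1, 1.75 for Mmp12 in Cre:lox OS replicate 3 and 1.57 for Trpc6 in shRNA OS replicate 2. The lowest were -1.70 for Trpc6 in Cre:lox OS replicate 3, -1.68 for Trpc6 in shRNA OS replicate 1 and -1.53 for Casp12 in shRNA OS replicate 2. The array that stood apart, shRNA OS replicate 2, held the lowest value in 15 of the 37 genes, and its median difference was -0.20.

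The comparison of models asks whether tumours with the p53 hairpin differ from those with floxed p53. None of the 37 genes passed limma's test (adjusted p under 0.05), as 0.0201% of all 19938 genes did, and 3 genes had an unadjusted p under 0.05, where 9.63% of all genes did. Of the 37 genes 32 had a lower mean in shRNA OS and 5 a higher one, with a median of -0.57 against 0.01 over all genes. Without Cre:lox OS replicate 4 that median became -0.13, with 30 lower and 7 higher, and again 0 passed where 0.00502% of all genes did, with 3 at an unadjusted p under 0.05 (8.23% of all genes). The genes were chosen on a tumour of 1 model, so this direction is a description.

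Single genes show how 1 tumour weighs on that comparison. Birc2 was 7.68 ± 0.20 in shRNA OS and 8.61 ± 1.75 in Cre:lox OS (log2, SD, n = 4 each), a difference of -0.94 (SE 0.71, limma adjusted p = 0.751). Without Cre:lox OS replicate 4 it was -0.06 (SE 0.16, limma adjusted p = 0.994). Yap1 differed by -0.57 (SE 0.51, limma adjusted p = 0.803), and by 0.06 (SE 0.14, limma adjusted p = 0.993) without that tumour. The smallest p in each direction belonged to Endod1 (-0.45, SE 0.17, limma adjusted p = 0.418) and Pdgfd (0.88, SE 0.44, limma adjusted p = 0.565). The models did not overlap in 2 of the 37 genes, Birc3 and Msantd4, both lower in shRNA OS, where 3.44% of all genes did so, and in 0 higher, where 2% did. Without Cre:lox OS replicate 4, Birc3 differed by -0.59 (SE 0.21, limma adjusted p = 0.512) and Casp12 by -0.92 (SE 0.35, limma adjusted p = 0.538).

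Rb genotype and tumour site were compared with the model as a covariate. Between 6 Rbfl/+ and 2 Rb+/+ tumours no gene of the 37 passed limma's test, as 0% of all genes did, and 1 had an unadjusted p under 0.05 (4.73% of all genes). That gene was Mmp10 (-0.97 in Rbfl/+, SE 0.29, limma adjusted p = 0.836), which was highest in Cre:lox OS replicate 1, one of the Rb+/+ tumours. Without Cre:lox OS replicate 4 none passed and 2 had such a p (3.7% of all genes). The smallest p among genes higher in Rbfl/+ belonged to Casp4 (1.33, SE 0.68, limma adjusted p = 0.836). Between 5 tibial and 3 other tumours again none of the 37 passed, as 0% of all genes did, and 3 had an unadjusted p under 0.05 (5.64% of all genes). These were Casp4 (1.61, SE 0.51, limma adjusted p = 0.697), Casp1 (1.40) and Sesn3 (0.51), all higher in the tibia, which includes Cre:lox OS replicate 4. Without that tumour none passed, 2 had such a p (5.51% of all genes), and Casp4 was 0.9997 higher in the tibia (SE 0.35, limma adjusted p = 0.848). The smallest p among genes lower in the tibia belonged to Fam76b (-0.34, SE 0.18, limma adjusted p = 0.943).

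Genes that act with those of the stretch were taken from lists, and none of the list genes passed limma's test between the models. Among 22 measured targets of YAP and TEAD, 4 stood above 1 in Cre:lox OS replicate 4 (3.61% of all genes) and 0 below -1 (1.21%). Their median was 0.14, against -0.09 over all genes, and 5 were highest of the 8 tumours there (13.2% of all genes). Ankrd1, a muscle and stress-response gene, stood at 2.51 and the receptor kinase gene Axl at 1.74. Also above 1, but close to it, were Ajuba (1.06) and Nuak2 (1.0002), named here after their values were seen. Ankrd1 was as high in Cre:lox OS replicate 3 (10.15) as in replicate 4 (9.996). The textbook targets Ccn1 and Ccn2, named here after their values were seen, stood at -0.07 and -0.06. Of the 16 Hippo pathway and TEAD genes none stood past 1 in either direction, with a median of 0.07, and Tead2 (-0.93) and Nf2 (0.88) were farthest from 0.

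Partners of Birc2 and Birc3 stood slightly higher in Cre:lox OS replicate 4, none of them past 1. Of 20 measured genes of the inhibitor of apoptosis, TRAF and nuclear factor kappa B list, 17 stood above 0 there. Of these 20, 8 were highest of the 8 tumours there (13.2% of all genes were). Their median was 0.31, against -0.09 over all genes, led by the receptor genes Tnfrsf12a (0.91) and Tnfrsf1b (0.72). The list's mean level ran from 8.95 to 9.16 in Cre:lox OS and from 8.40 to 8.96 in shRNA OS. It was 9.16 in Cre:lox OS replicate 4 and 9.10 in replicate 2. Tnfrsf12a was as high in Cre:lox OS replicate 3 (10.65) as in replicate 4 (10.64). Of 12 measured inflammasome genes, 12 stood above 0 and 4 above 1 (3.61% of all genes), with a median of 0.62. The largest were the interleukin gene Il18 (1.68) and the sensor gene Nlrc4 (1.58). Il18 was as high in Cre:lox OS replicate 1 (8.21) as in replicate 4 (8.16). The inflammasome genes had a median of 0.61 in shRNA OS replicate 1, so their level in Cre:lox OS replicate 4 was shared by another tumour. Among 18 metalloproteinase genes off chromosome 9, activators and inhibitors, 3 stood above 1 and 1 below -1 (3.61% and 1.21% of all genes). Their median was 0.15. Mmp23 stood at 2.28 and Mmp9, a product of osteoclasts, at -1.72.

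Marker lists of other cell types differed in Cre:lox OS replicate 4, most of them also in other tumours. All 10 osteoclast genes lay below 0 and 8 below -1 (1.21% of all genes), with a median of -1.56, led by Ocstamp (-1.89) and Oscar (-1.82). The list's median was -2.30 in shRNA OS replicate 1 and -1.08 in Cre:lox OS replicate 3. All 7 measured osteoblast genes of 12 lay below 0, with a median of -0.58 (-0.38 in Cre:lox OS replicate 3), Phospho1 at -1.86 and Sp7 at -0.90. All 5 osteocyte genes lay below 0, with a median of -0.79 and Phex at -2.47, but Phex was lower in Cre:lox OS replicates 2 (6.52) and 3 (7.52) than in replicate 4 (8.61), and the list's mean level was lowest in replicate 2 (6.93 against 7.13). Of 10 fibroblast genes 9 lay above 0 and 5 above 1 (3.61% of all genes), with a median of 0.95, Fbln1 at 2.29 and Dcn at 2.25. The fibroblast median was higher in Cre:lox OS replicate 3 (1.16), where the mean level was 10.46 against 10.69 in replicate 4. The part of these cell types in the values of the 37 genes was not tested.

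**Figure D5:**
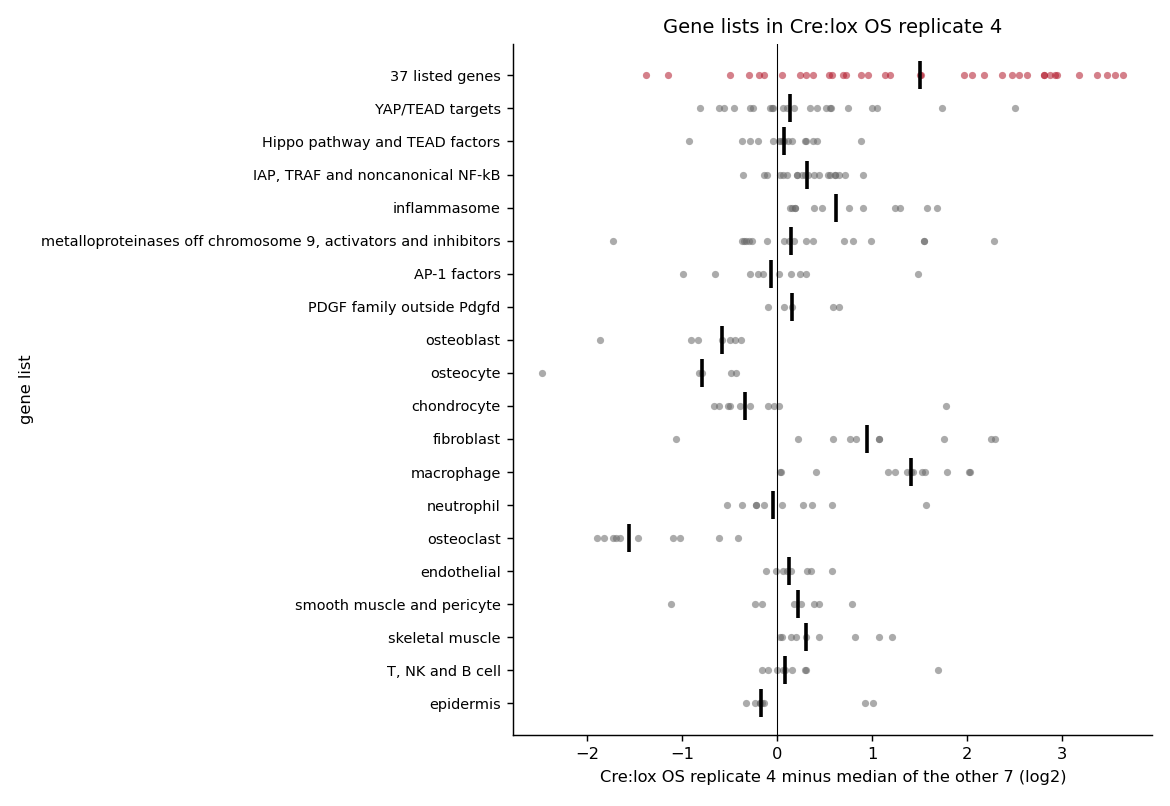
Difference of Cre:lox OS replicate 4 from the median of the other 7 tumours (log2) for each gene of each list (points) with the list's median (vertical mark). The 37 chromosome 9 genes are in red. Their median is 1.51, and these values chose them, so their place above the lists is a description. Among the lists macrophage genes are highest at 1.42 and osteoclast genes lowest at -1.56.

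Medians of the remaining lists in that tumour were -0.34 for chondrocyte genes (Acan 1.77, Col2a1 -0.67), 0.13 for endothelial genes (Vwf 0.58, Esam 0.36) and 0.22 for smooth muscle and pericyte genes (Cspg4 -1.12, Rgs5 0.79). They were 0.30 for skeletal muscle genes (Myh1 1.21, Myl1 1.08), 0.08 for T, NK and B cell genes (Nkg7 1.69, Cd2 0.31), -0.17 for epidermis genes (Trp63 1.01, Krt14 0.93) and 0.15 for the PDGF family. The largest macrophage differences were 2.03 for Adgre1 and 2.03 for Fcgr1, the largest osteocyte difference after Phex was -0.82 for Dmp1, and the neutrophil gene S100a8 stood at 0.58. None of these lists but macrophage, fibroblast and osteoclast genes had 5 or more genes past 1 in 1 direction. Acan was higher in Cre:lox OS replicate 2 (8.84) than in replicate 4 (7.90). The skeletal muscle median was higher in shRNA OS replicate 3 (1.82) and in Cre:lox OS replicates 1 (1.46) and 3 (1.63).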

How the data were processed

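Total RNA of 8 tumours was hybridised to 1-colour arrays. Per the submitters' processing notes, the authors computed the deposited log2 expression values with RMA (robust multi-array average), and the notes name the build mm9. RMA's version was not given in the sources used here. Values ran from 2.53 to 14.57. RMA can narrow differences of dim and of very bright genes.

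Of 35556 probe sets, 21789 had 1 symbol in the platform annotation and gave 19938 genes, each by its probe set of highest mean. Gene order came from the GRCm38.p6 table, for order only. No 2 arrays were pooled, and replicates, numbered in accession order, are separately titled tumours. The labels give no batch, so p-values measure the spread between these samples. The number of arrays limits the precision.

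Differences were tested with limma 3.58.1 (lmFit, eBayes) in R 4.3.3 over all genes, with Benjamini-Hochberg adjustment at 0.05, and the code was tested on simulated data. Each tumour was set against the median of the other 7, with 1 (log2) as the threshold for counts. The 37 genes, the 19 lists, the tests and the rule for names were chosen with earlier results of these data known. The rule named every measured member, its neighbours, and the 2 genes of each list farthest from 0 in Cre:lox OS replicate 4. Alternatives were other references, scalings, filters on dim genes, probe set means, array weights, trend and robust eBayes, covariates, and leaving out each tumour.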

Additional observations from a re-analysis of the deposited data

Results flagged for a closer look

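For each of the 37 genes and each model, the gap between the most distant of the 4 tumours and its nearest neighbour was divided by the range of the 4. In 15 of 74 such sets it exceeded Dixon's 95% critical value for 4 samples, which chance does in about 1 in 20 sets. In Cre:lox OS this held for 12 genes, all with Cre:lox OS replicate 4 as the distant and highest tumour: Alkbh8 (0.858), Cwf19l2 (0.862), Gucy1a2 (0.841), Aasdhppt (0.912), Kbtbd3 (0.868), Casp12 (0.933), Dync2h1 (0.938), Dcun1d5 (0.835), Birc2 (0.905), Birc3 (0.888), Yap1 (0.885) and Arhgap42 (0.833). These are the values that chose the genes and support nothing further. In shRNA OS it held for Aasdhppt (0.862) and Fam76b (0.979), with replicate 2 as the lowest tumour, and for Mmp20 (0.85), with replicate 3 as the lowest. Replicate 2 is the array with the lowest correlation with the others.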

How the results depend on the processing

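The count of 21 genes above 1 in Cre:lox OS replicate 4 was 20 after quantile normalization, 18 of 28 and 16 of 24 genes above the 25th percentile and the median of level, and 27 with a threshold of 0.5, which 10.2% of all genes passed. It was 21 under every other reference, scaling, probe set rule and left-out tumour tried. Of the 21 genes, 20 stayed above 1 wherever they were measured, the exception being Mmp13. The median of 1.51 became 1.25 against the other 3 Cre:lox OS tumours, 1.38 with median centring, 2.12 and 2.28 with the filters on dim genes, and 1.29 to 1.55 when 1 other tumour was left out. In the model comparison Yap1 ranged from -0.84 to 0.06 when 1 tumour was left out, the last, 0.06 (0.0599), with Cre:lox OS replicate 4 left out. No gene of the 37 passed limma's test for model, Rb genotype or site under any alternative. The number of the 37 at an unadjusted p under 0.05 was 3 for the models, with 0 when replicate 2 or 4 of shRNA OS was left out and 7 when replicate 2 of Cre:lox OS was. For site it was 3, with 9 when replicate 4 of shRNA OS was left out and 0 with no covariate, and for Rb genotype 1, with a range of 0 to 2. No paired analysis was possible because the replicate numbers were given in accession order and pair no tumours. Signal over background was not analysed here, so values of dim genes are limits on what can be seen.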
